A study of Cyprinus carpio with 6 samples.

Results

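DNA damage repair genes were followed in common carp (Cyprinus carpio) embryos at the mid-blastula stage. The genes were matched by symbol, with a fixed pattern of repair gene names such as rad with a number, brca, xrcc, fanc, msh, ercc, parp, neil and lig. The pattern was chosen with earlier results of these data known, that of mdc1 among them. Of 40568 genes and assembled loci with a count in any library, 51 matched the pattern. By their symbols they were grouped into double-strand break repair and its signalling (18 genes), base excision repair (8), nucleotide excision repair (7), crosslink repair (5), mismatch repair (4) and translesion synthesis (1). Another 8 genes matched the pattern but were not placed in any of these pathways, and they were kept apart. The genes lay on 28 chromosomes, 15 genes on chromosomes of the A subgenome and 36 on those of the B subgenome.

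The samples were 6 RNA-Seq libraries of whole embryos. Embryos of the fresh group (3 libraries) were made with sperm on day 0 after stripping, and those of the aged group (3 libraries) with sperm kept on ice in artificial seminal plasma for 14 days. Where a sentence gives values of both groups in turn, the fresh group comes first and replicates are in the order 1, 2 and 3. The same males gave both kinds of sperm, and all eggs came from 1 female. No source used here ties a library to a male, and the p-values therefore measure only the spread between these libraries, which may be technical. The comparison addresses whether storage of the sperm left a trace in the transcripts of the embryos.

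DNA is damaged in every cell, and each pathway repairs a different lesion. Base excision repair removes small altered bases, nucleotide excision repair cuts out bulky lesions, and mismatch repair corrects errors of replication. Breaks through both strands are joined end to end or copied from an intact duplex by homologous recombination, and the Fanconi anaemia proteins handle links between the strands. A spermatozoon has little capacity for repair, so lesions that it carries into the egg are mended after fertilisation by proteins and transcripts that the mother has stored. At the blastula stage of fish, the embryo still holds many maternal transcripts while its own genome is starting to be transcribed. The roles given below are those known from mammals and yeast.

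Each library held 14993459 to 15632387 estimated counts. On the first principal component of log2 CPM, with 22.9% of the variance, both replicate 3 libraries lay away from the rest, at scores of 44 and 53.2 against -28.6 to -15.2. The summed level of the 6 counted genes of 16 listed for the early embryo, among them nanog and pou5f3, was 1260 to 1350 FPKM in both groups. For sperm and testis 2 of 8 listed genes were counted, for ovarian follicle 2 of 5 and for later tissues 2 of 8. Each of these pairs summed to at most 0.25 FPKM in any library. Most genes listed for the early embryo were not counted either, so a gene without counts under its symbol is not read as absent. FPKM are fragments scaled to transcript length and library size, and levels are compared between genes only on this scale. In whole embryos, fewer cells with a transcript and less of it per cell cannot be told apart. Common carp is allotetraploid, so a second copy of a gene can share reads with it. Copies that carry only a LOC symbol, as 24674 of the counted genes do, could not be matched by name. Levels and ratios below are therefore those of the named copies alone. RSEM divides such reads and then gives counts that are not whole, as it did in at least 1 library for 19 of the 51 repair genes and for 45.0% of all counted genes.

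Transcripts of the repair genes were present in both groups, with the exception of mdc1, which had no count in the aged group. edgeR called none of them as different. The 51 genes together took 0.11 to 0.117% of the counts of a library. Their summed level was 466, 467 and 445 FPKM in the fresh group and 467, 465 and 449 FPKM in the aged group. Replicate 3 was the lowest of each group, and the groups overlapped. A mean above 10 FPKM was found for 17 genes, one of 1 to 10 FPKM for 26 and one below 1 FPKM for 8. The median over the 51 genes was 4.38 FPKM, and 25 of them lay above 5.0 FPKM, the median of all tested genes. The highest levels belonged to genes of different pathways: rad23b of nucleotide excision repair (38.5 FPKM), parp2 of base excision repair (37.9 FPKM), and chek2 and xrcc4 of double-strand break repair (32.0 and 26.8 FPKM). The libraries of rad23b and parp2 overlapped, and rad23b was the higher of the pair within each fresh library and the lower within each aged one. This order was noticed in the values and was not tested.

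**Figure D1:**
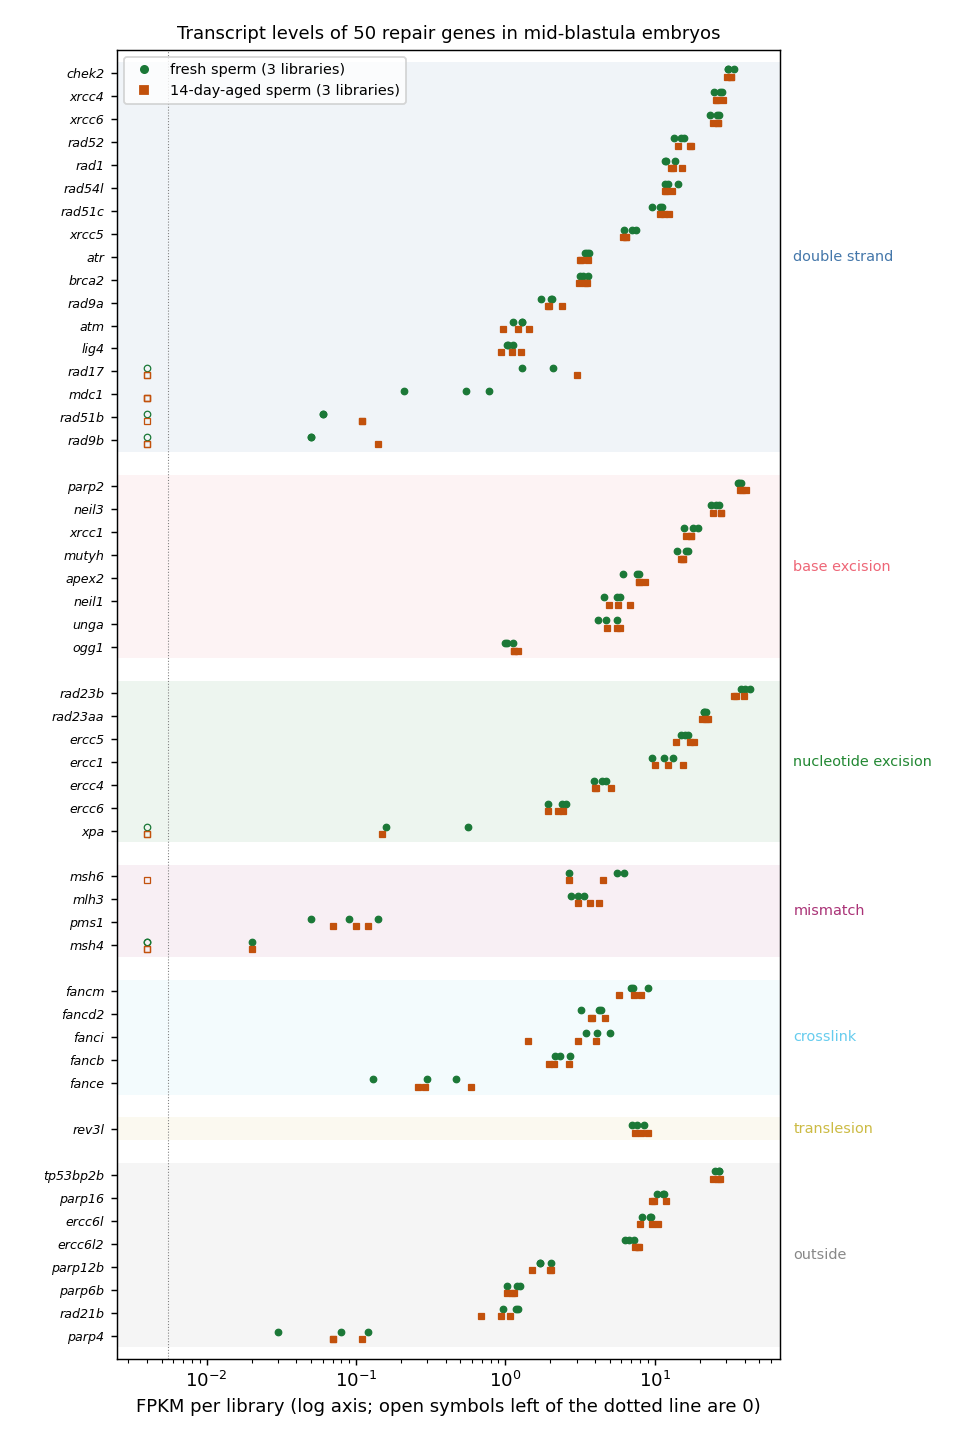
FPKM of 50 of the 51 repair genes in each library, on a log axis, grouped by pathway and ordered by mean within it, with circles for the fresh group and squares for the aged group (3 libraries each, open symbols are values of 0). The symbols of most genes lie on top of each other. Those of mdc1, rad17 and msh6 do not, nor do those of some genes with few counts, such as xpa, rad51b and rad9b. Means run from 0.00667 FPKM for msh4 to 38.5 FPKM for rad23b.

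Of the 51 genes, 44 had enough counts for edgeR's quasi-likelihood test over 27342 genes. The other 7 were fance, rad51b, rad9b, pms1, msh4, xpa and parp4, each with a mean of at most 0.34 FPKM. At an adjusted p under 0.05 edgeR called 0 of the 44, against 0.0146% of all tested genes, and the smallest adjusted p among them was 0.502, for mdc1. At an unadjusted p under 0.05 it gave 3 of the 44, ercc6l2 higher and mdc1 and rad23b lower in the aged group. The background was 3.36% of all tested genes in either direction, 1.46% higher and 1.9% lower. DESeq2 called 1 gene, mdc1, of 49 to which it gave an adjusted p, against a background of 0.182%. Its only repair gene at an unadjusted p under 0.05 was the same one, against 2.31% of the genes to which it gave an adjusted p. The members were chosen with the result of mdc1 known, so the shares that rest on it say nothing about the repair genes as a set.

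The fold changes centred on 0. The median log2 fold change of the 44 genes was -0.00176, beside -0.000895 over all tested genes, with 21 genes above 0 and 23 below. Without regard to sign, the median was 0.0913, beside 0.0907 over all tested genes. For 37 of the 44 genes (84.1%) the 95% interval of the fold change lay within 1.5-fold either way, and 61.6% of all tested genes did so. These shares were not matched for level, as 0 of the repair genes and 1843 of all tested genes had a mean of at most 1 CPM. The median standard error of the log2 fold change was 0.111 for the repair genes and 0.145 over all tested genes. Among the 7 genes whose intervals reached beyond 1.5-fold were ogg1, fanci, rad17, mdc1, msh6 and rad21b, a cohesin subunit gene. Of these, ogg1 and rad21b had 24 to 53 counts per library. For mdc1 the fitted interval ran from -11.4 to -5.59 on the log2 scale. As mdc1 had 0 counts in every aged library, this interval does not bound its fold.

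**Figure D2:**
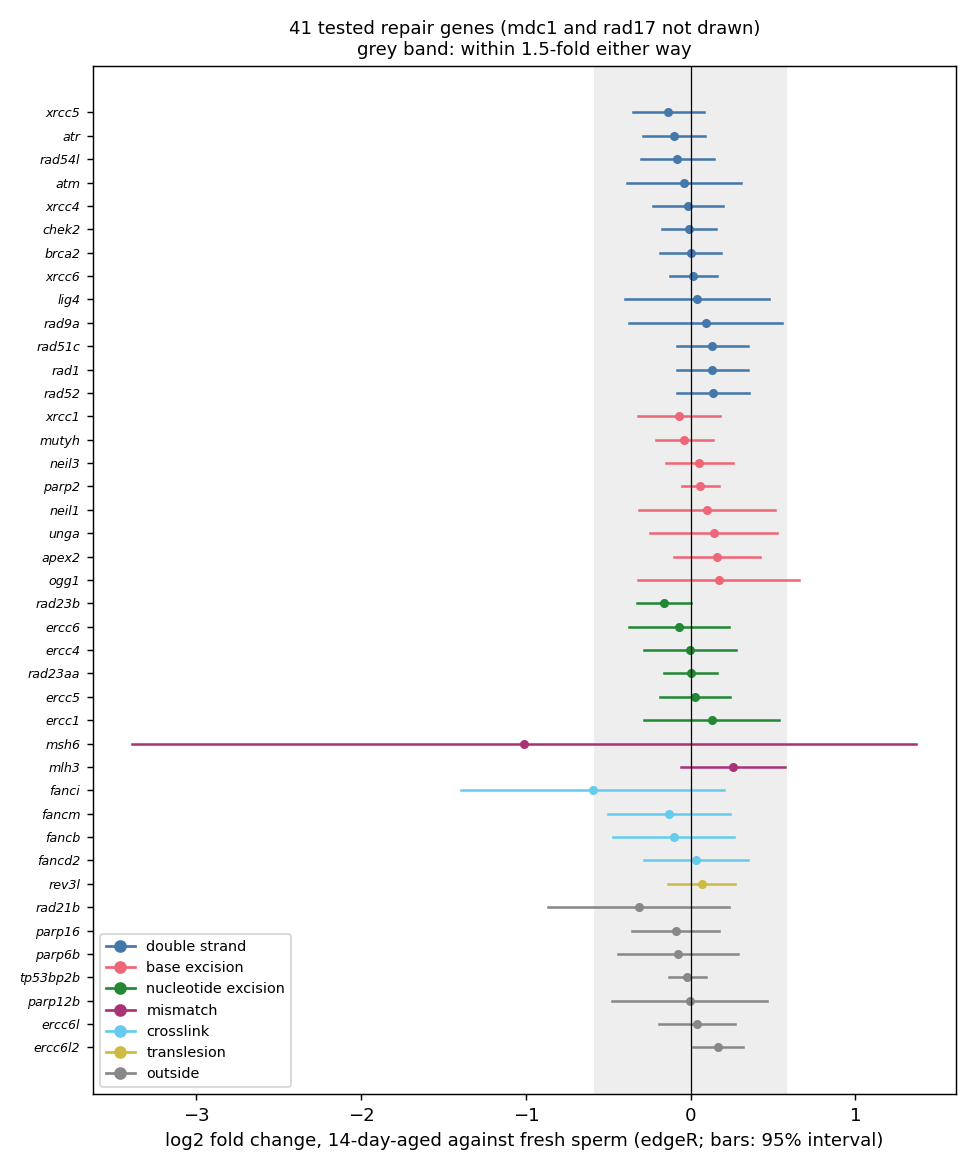
The log2 fold change of the aged against the fresh group (x axis, edgeR) for 41 of the 44 tested repair genes, coloured by pathway, with points for estimates and bars for 95% intervals. Most bars stay inside the grey band of 1.5-fold either way, and msh6 and fanci have the widest. The genes mdc1 and rad17, each with a count of 0 in 3 libraries, are left out because their bars would not fit the axis.

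The groups did not overlap in 7 of the 44 genes (15.9%), beside 8.56% of all tested genes. This share includes mdc1, whose result was known, and was not matched for level, so it is not read as a result about the set. The aged libraries were all above the fresh ones for parp2, apex2, rad51c and ercc6l2 (4 genes, background 4.11%) and all below for mdc1, xrcc5 and rad23b (3 genes, background 4.45%). Apart from mdc1, these differences were small. ercc6l2, on chromosome B8 from 14795595 to 14809907, is a helicase gene linked to end joining. It had 34.8, 37.6 and 34.2 CPM (counts scaled to library size) in the fresh group and 40.3, 40.0 and 39.4 CPM in the aged group. The log2 fold change was 0.17 with a standard error of 0.06 (adjusted p = 1 from edgeR). rad23b, on chromosome A21 from 422569 to 429612, encodes a partner of the damage sensor XPC. It had 75.0, 68.9 and 68.2 CPM against 67.8, 60.6 and 61.0 CPM. For rad23b the log2 fold change was -0.16 with a standard error of 0.07 (adjusted p = 1 from edgeR). On the FPKM scale the groups of parp2, rad51c, xrcc5 and rad23b overlapped, and those of mdc1, apex2 and ercc6l2 did not. Those of apex2 just missed each other, at 7.82 FPKM in fresh replicate 2 and 7.83 FPKM in aged replicate 2. Both of these libraries round to 12.6 CPM.

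**Figure D3:**
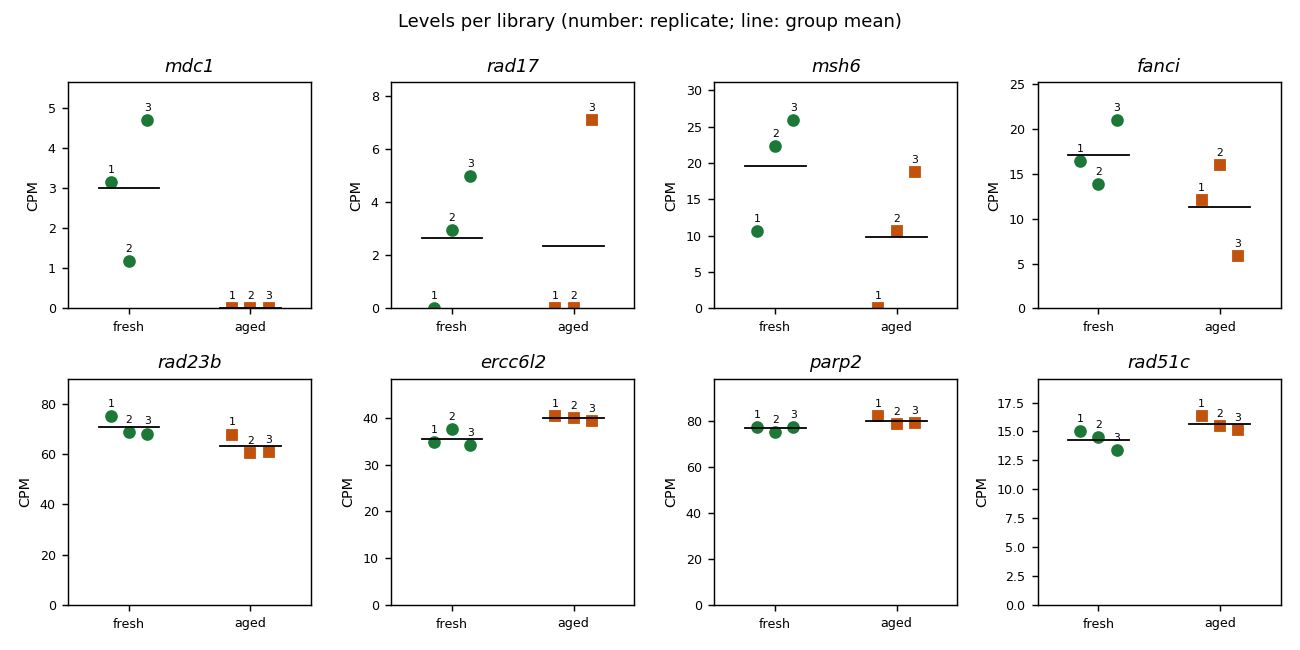
TMM-scaled CPM of 8 repair genes in each library (number: replicate, line: group mean), in the fresh group (circles) and the aged group (squares). In the top row mdc1 is at 0 in every aged library, rad17 is at 0 in 3 libraries, msh6 at 0 in aged replicate 1, and fanci is lowest in aged replicate 3. In the bottom row the groups do not overlap, but their means are close.

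Among the genes that sense a double-strand break, mdc1 had the largest fitted fold of the 44 tested genes. Its protein binds the phosphorylated histone H2AX beside a break and gathers the other repair factors there. The gene lies on chromosome B16 from 9139491 to 9147995 (assembly ASM1834038v1). It had 48, 18 and 69 counts in the fresh group and 0, 0 and 0 in the aged group. The mean of the first group was 3.01 ± 1.77 CPM (SD, n = 3), or 0.513 FPKM, a low level. This mean was 15.4 times a floor of 3 counts per library, 0.196 CPM, set for the aged group. The floor covers counting error only, and the fresh libraries themselves ran from 1.18 to 4.71 CPM. edgeR gave an adjusted p of 0.502 (unadjusted p = 0.000624) and DESeq2 one of 2.55e-05. With single libraries left out the adjusted p from edgeR ran from 0.248 to 0.829. The size of the log2 fold change depended on the method. It was -8.52 in edgeR, -7.97 in DESeq2, -2.49 in limma on log2(FPKM + 0.1) and -0.58 in limma on log2(FPKM + 1). The gene passed the filter on low counts only through the fresh libraries. Its counts were not whole in any of the 3 libraries that had them, and whether reads moved between gene copies was not tested.

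A count of 0 in at least 1 library beside at least 30 in another was found for 3 of the 44 tested genes, mdc1, rad17 and msh6, and for 2.49% of all tested genes. rad17, on chromosome B5 from 6275695 to 6280717, which loads the checkpoint clamp at damaged DNA, was singled out after its values were seen. It had 0, 45 and 73 counts in the fresh group and 0, 0 and 104 in the aged group. The libraries at 0 fell in both groups. Its log2 fold change of -0.17 had a standard error of 1.68, and with single libraries left out it ran from -8.34 to 0.67. Its counts too were not whole in the 3 libraries that had them.

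The kinase genes atm and atr, which start the signal at breaks and at stalled forks, were measured at 1.21 to 1.24 and 3.31 to 3.52 FPKM as group means. atm had 1.30, 1.29 and 1.12 FPKM in the fresh group and 1.45, 1.21 and 0.96 FPKM in the aged group. atr had 3.40, 3.63 and 3.54 FPKM against 3.18, 3.56 and 3.20 FPKM. For both genes the groups overlapped. The gene of the downstream kinase chek2 stood far higher, at 33.9, 30.9 and 31.1 FPKM and 30.7, 32.7 and 32.6 FPKM. Within a library its level was 21.2 to 34.0 times that of atm, and the level of atr was 2.19 to 3.33 times that of atm. The clamp subunit gene rad1 had 11.9, 13.8 and 11.8 FPKM and 13.3, 15.2 and 12.9 FPKM, 5.41 to 7.77 times the level of rad9a. Its log2 fold change was 0.13 with a standard error of 0.09. The paralogue rad9b was nearly silent, with 0 to 3 counts per library.

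Among the genes of homologous recombination, rad52, rad51c and rad54l were higher in level than brca2. brca2, whose protein loads the strand exchange machinery, had 3.34, 3.56 and 3.17 FPKM and 3.13, 3.53 and 3.44 FPKM. rad51c, part of a complex that assists it, had 11.2, 10.9 and 9.61 FPKM against 12.4, 11.6 and 10.9 FPKM, with a log2 fold change of 0.13 and a standard error of 0.09. The annealing factor gene rad52 had 15.8, 15.1 and 13.5 FPKM against 17.3, 17.5 and 14.4 FPKM, with a log2 fold change of 0.14 and a standard error of 0.09. Both folds had an adjusted p of 1 from edgeR, and on the FPKM scale the groups of all 3 genes overlapped. The related gene rad51b had 0 to 8 counts per library.

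Among the genes of end joining, the named copies for the subunits of the Ku ring that grips broken ends differed in level. xrcc6 had 26.9, 26.2 and 23.4 FPKM in the fresh group and 26.7, 26.5 and 24.6 FPKM in the aged group. xrcc5 had 7.05, 7.53 and 6.25 FPKM against 6.43, 6.48 and 6.16 FPKM. On the CPM scale the groups of xrcc5 just missed each other, as the nearest libraries of both round to 14.5 CPM. The log2 fold change of xrcc5 was -0.14 with a standard error of 0.09 (adjusted p = 1 from edgeR). xrcc4, the scaffold of the ligase, had 24.9 to 28.5 FPKM and the ligase gene lig4 itself 0.94 to 1.27 FPKM, a ratio of 22.2 to 27.9 within libraries.

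Ratios of this kind were taken for 13 pairs of partner genes. Copies with only a LOC symbol were not added to either side, so the ratios do not give the balance of all transcripts. In 2 of them the groups did not overlap: xrcc6 to xrcc5 ran from 3.48 to 3.82 in the fresh group and from 4.0 to 4.16 in the aged group, and rad1 to hus1, another clamp subunit gene, from 2.52 to 2.82 and from 2.93 to 3.17. The exact permutation test gave p = 0.1 for each, the smallest that 3 against 3 libraries allow, and 0.65 after adjustment over the 13 ratios. As that smallest p lies above 0.05, the test could not have called any ratio and decides nothing here. How often the ratios of other gene pairs lie apart was not tested, so the count of 2 has no background. The groups of xrcc5 alone lay apart on the CPM scale, and the ratio of xrcc6 to xrcc5 draws on the same counts. The other 11 ratios overlapped between the groups. The widest was fancd2 to fanci, the partners of the Fanconi clamp, at 0.636 to 2.62.

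**Figure D4:**
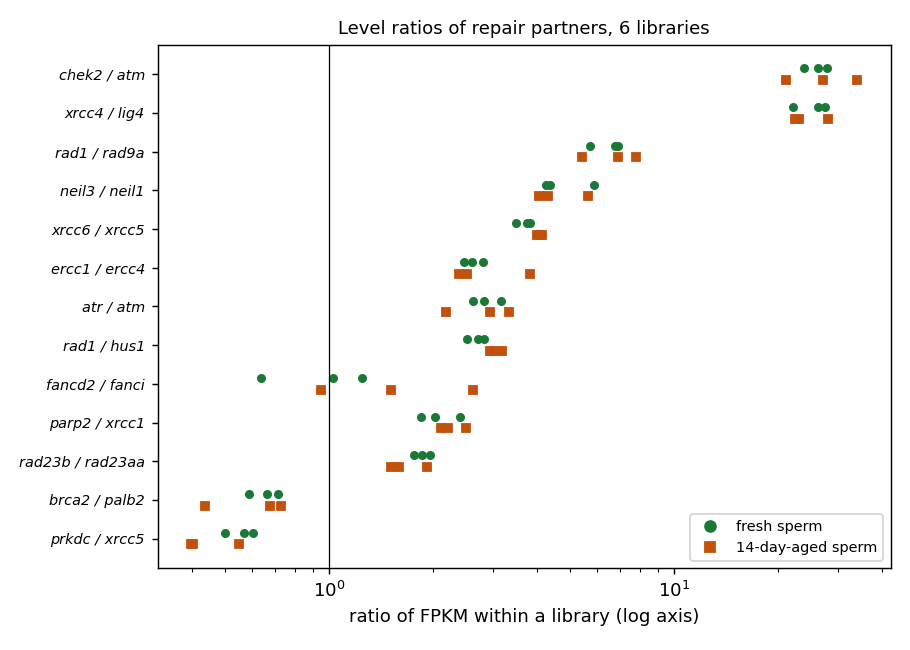
Ratio of the FPKM of 13 pairs of repair partners within each library, on a log axis, for the fresh group (circles) and the aged group (squares). Ratios differ between pairs, from 0.398 for prkdc to xrcc5 up to 34.0 for chek2 to atm, while symbols of one pair lie close together except for fancd2 to fanci.

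The 8 base excision repair genes were all measured well enough for the test, and 0 were called. The DNA glycosylases find and release damaged bases. Among them neil3 was the highest, with 23.7, 27.0 and 25.8 FPKM in the fresh group and 24.7, 27.7 and 27.6 FPKM in the aged group, 4.06 to 5.86 times the level of neil1 in the same library. unga, which removes uracil, had 5.60, 4.16 and 4.74 FPKM against 4.83, 5.83 and 5.61 FPKM. ogg1, which removes oxidised guanine, was low at 1.03, 1 and 1.13 FPKM against 1.15, 1.15 and 1.22 FPKM. Its groups lay apart on the FPKM scale but overlapped on the CPM scale of the test, with 24 to 29 counts per library. mutyh, the adenine glycosylase gene, had 14.1 to 16.6 FPKM over all libraries.

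Further along the pathway, parp2 senses nicked strands and varied little between libraries. It had 37.8, 36.9 and 36.2 FPKM in the fresh group and 40.6, 38.5 and 37.3 FPKM in the aged group. On the CPM scale its groups lay apart, at 75.2 to 77.5 and 78.7 to 81.9 CPM. The scaffold gene xrcc1 had 15.8, 18.2 and 19.6 FPKM against 16.3, 17.4 and 17.6 FPKM. apex2, a nuclease gene of the AP endonuclease family, had 7.63, 7.82 and 6.13 FPKM against 8.59, 7.83 and 7.87 FPKM. For apex2 the log2 fold change was 0.16 with a standard error of 0.11 (adjusted p = 1 from edgeR). The summed level of the 8 genes was 114 to 116 FPKM in the fresh group and 117 to 119 FPKM in the aged group, without overlap. In CPM the sums overlapped, at 213 to 224 and 217 to 229. These sums were not tested. In FPKM the sums of every other pathway overlapped between the groups, as for double-strand break repair at 152 to 160 and 158 to 161.

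Of the 7 nucleotide excision repair genes, 6 were tested and 0 were called. rad23b had 43.4, 40.1 and 38.0 FPKM in the fresh group and 39.9, 35.1 and 34.2 FPKM in the aged group. Its paralogue rad23aa had 22, 21.5 and 21.5 FPKM against 20.8, 22 and 22.6 FPKM, so rad23b stood at 1.51 to 1.97 times its level within a library. The incision nuclease gene ercc5 had 16.1, 16.7 and 15.1 FPKM against 18.2, 17.1 and 13.9 FPKM. ercc1 and ercc4 form the other nuclease. ercc1 had 11.5, 13.2 and 9.65 FPKM against 12.2, 15.6 and 10.1 FPKM, and ercc4 had 4.44, 4.74 and 3.91 FPKM against 5.12, 4.05 and 3.99 FPKM. Each of these genes had overlapping groups on the FPKM scale. ercc6, which acts where a lesion stalls transcription, had 1.93 to 2.56 FPKM. xpa, which verifies the lesion, was not tested and had 13, 0 and 4 counts against 0, 4 and 0.

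The mismatch repair genes were few and weakly measured, with 2 of 4 tested and 0 called. msh6, on chromosome A13 from 26178688 to 26189960, encodes the part of the mismatch sensor that recognises single mispaired bases. It had 163, 340 and 380 counts in the fresh group and 0, 164 and 274 in the aged group. Its level, 4.82 ± 1.88 FPKM against 2.40 ± 2.28 FPKM (SD, n = 3 each), overlapped between the groups, and replicate 1 was the lowest library of each. The fold change, at an adjusted p of 1 from edgeR, was -1.01 on the log2 scale with a standard error as large. With single libraries left out it ran from -1.88 without aged replicate 3 to -0.42 without aged replicate 1, and with both replicate 3 libraries left out it was -1.64. Its counts were not whole in any of the 6 libraries. mlh3, a nuclease subunit gene used in meiosis and in part in mismatch repair, had 3.08, 3.36 and 2.74 FPKM against 4.27, 3.70 and 3.07 FPKM. For mlh3 the log2 fold change was 0.26 with a standard error of 0.13 (adjusted p = 1 from edgeR). pms1 had 2 to 6 counts per library, and the meiotic gene msh4 had 1 count in each of 2 libraries.

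Of the 5 crosslink repair genes, 4 were tested and 0 were called. fancd2 and fanci encode the clamp that closes on DNA at a crosslink. fancd2 had 4.27, 4.37 and 3.21 FPKM in the fresh group and 4.64, 3.82 and 3.75 FPKM in the aged group. fanci, on chromosome B25 from 7412420 to 7423375, had 251, 212 and 308 counts against 192, 247 and 86. Replicate 3 was the highest fresh library and the lowest aged library. A log2 fold change of -0.59 had a standard error of 0.34 (adjusted p = 1 from edgeR), and with single libraries left out it ran from -0.93 without aged replicate 2 to -0.28 without aged replicate 3. With both replicate 3 libraries left out it was -0.11. Its counts were not whole in any library. fancm, a translocase gene that anchors the core complex, had 9.09, 6.92 and 7.12 FPKM against 7.31, 5.76 and 8.13 FPKM. The core complex genes fancb and fance had 1.97 to 2.73 and 0.13 to 0.59 FPKM. The polymerase gene rev3l, the 1 gene of translesion synthesis, had 8.50, 7.67 and 7.05 FPKM against 8.06, 9.08 and 7.35 FPKM.

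Of the 8 genes that matched the pattern but were placed in none of the pathways, ercc6l2 (above) among them, 7 were tested and 0 were called. tp53bp2b, which encodes a p53-binding regulator of cell death, had 27.1, 26.9 and 25.3 FPKM in the fresh group and 27.6, 26.6 and 24.5 FPKM in the aged group. parp16, whose protein sits in the membrane of the endoplasmic reticulum, had 10.3, 11.3 and 11.6 FPKM against 12, 9.65 and 9.84 FPKM. ercc6l, a translocase gene of dividing cells, had 9.44, 9.36 and 8.22 FPKM against 10.5, 9.55 and 7.93 FPKM. The groups of these 3 genes overlapped. Without these 8 genes, the 37 tested genes of the repair pathways had a median log2 fold change of 0.00136.

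The spread between replicate libraries was, for most repair genes, within the range of other genes of the same level. Spread is given as the SD of log2(CPM + 0.1) within the groups. At 10 to 30 CPM its median was 0.137 for 16 repair genes and 0.137 over all tested genes. At 30 to 100 CPM it was 0.0992 for 16 repair genes and 0.0977 over all. The median was smaller for repair genes at lower levels. It was 0.229 for 6 genes against 0.325 over all at 1 to 3 CPM, and 0.183 for 6 against 0.213 at 3 to 10 CPM. Above the 95th percentile of genes of their level stood 4 of the 44 genes: rad17 with 3.33, msh6 with 2.97, fanci with 0.563 and fancm with 0.24. The counts of rad17 were not whole in 3 libraries, and those of the other 3 genes in all 6. Below the 5th percentile of genes of their level stood 2 genes, ogg1 with 0.1 and parp2 with 0.0282. Over the 51 genes, 32 had whole counts in every library.

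**Figure D5:**
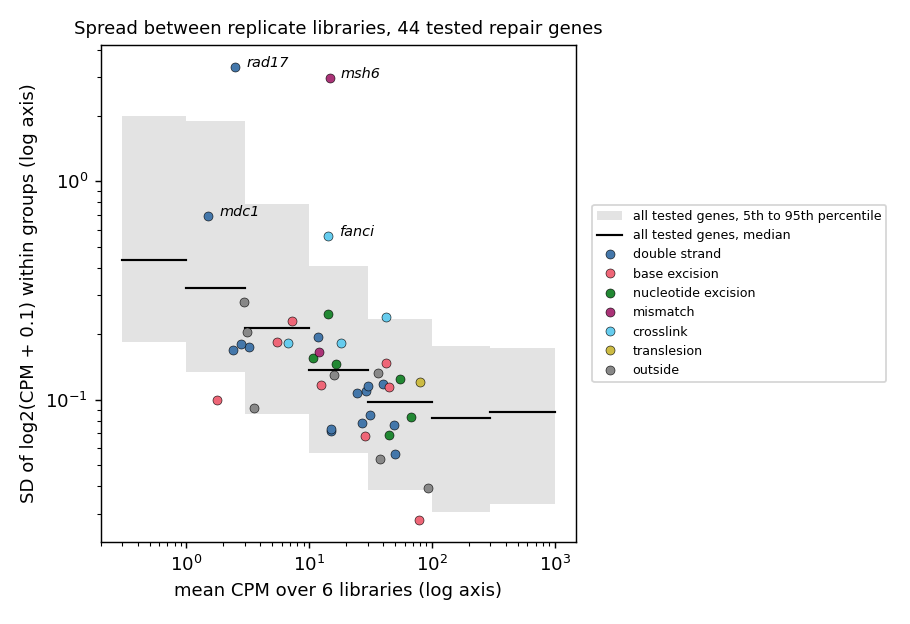
SD of log2(CPM + 0.1) within groups (y axis) against mean CPM (x axis) for the 44 tested repair genes, coloured by pathway, both on log axes. Grey boxes span the 5th to 95th percentile of all tested genes of a level and black lines their median. rad17, msh6 and fanci lie clearly above the boxes and fancm just above, while most points lie inside.

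The repair genes that the name pattern leaves out were read from a further list of damage response genes. Of 109 listed names, 58 were counted and 51 tested, and 0 were called by edgeR or DESeq2. Before adjustment, 2 had a p under 0.05 in edgeR, recql higher and prkdc lower in the aged group, and DESeq2 gave the same 2. These counts stand beside backgrounds of 3.36% in edgeR and 2.31% in DESeq2. Their median log2 fold change was 0.00141, with 26 genes above 0 and 25 below, and 36 genes (70.6%) had a 95% interval within 1.5-fold either way. The groups did not overlap in 3 genes (5.88%, background 8.56%), and prkdc, nthl1 and paxip1 were lower in each aged library. ccng1, a cyclin gene induced by p53, was the highest at 466, 486 and 529 FPKM against 490, 473 and 527 FPKM. dclre1a, a crosslink nuclease gene, and nsmce1, a subunit gene of the SMC5/6 complex, followed at 84.6 to 98.9 FPKM and 76.9 to 83.9 FPKM. The groups of all 3 overlapped.

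prkdc, on chromosome B7 from 24323205 to 24354130, encodes the kinase that Ku recruits to broken ends. It had 804, 713 and 673 counts in the fresh group and 686, 493 and 467 in the aged group. Its counts were not whole in 5 of the 6 libraries. In TMM-scaled CPM, 43.1 in the highest aged library lay just under 45.9 in the lowest fresh library. Its log2 fold change was -0.44 with a standard error of 0.13 (unadjusted p = 0.0115, adjusted p = 1 from edgeR). The helicase gene recql had 34, 63 and 33 counts against 52, 105 and 86, and its groups overlapped. Its log2 fold change was 0.89 with a standard error of 0.35 (unadjusted p = 0.0399, adjusted p = 1 from edgeR), and its counts were not whole in any library. nthl1, a glycosylase gene for oxidised pyrimidines, had 9.99, 9.85 and 10.03 FPKM against 9.58, 8.87 and 8.27 FPKM.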

How the data were processed

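RNA was measured in 6 libraries of mid-blastula embryos, grouped by their labels. The authors purified mRNA on oligo(dT) beads for DNBSEQ sequencing and used HISAT2 to map reads to ASM1834038v1, StringTie and Cuffmerge to assemble transcripts, and Bowtie2 to align reads to reference sequences. The submitters' processing notes name HISAT2, StringTie, Bowtie2 and DESeq2 with no versions. Strandedness is not given in the sources used here. The deposited values used here are estimated counts and FPKM per gene, whose labels name RSEM. The deposited table of the authors' own comparison (p-values and log2 fold changes) and 18 per-library columns (TPM and lengths) were not used. Coordinates are from an NCBI gene table of ASM1834038v1, which matched 51 of the 51 genes by transcript accession.

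Estimated counts were rounded to whole numbers. All genes were fitted by the quasi-likelihood test of edgeR 4.0.16 (R 4.3.3) without covariates, after filterByExpr and TMM scaling, with Benjamini-Hochberg adjustment over 27342 tested genes. Genes were called at an adjusted p under 0.05. The standard error is the log2 fold change divided by the square root of F. CPM are TMM-scaled. Ratios of FPKM were compared by two-sided exact permutation tests on log2 ratios. Scripts were tested on simulated data. Tables and figures used Python 3.11.15, pandas 2.3.3, numpy 2.4.6 and matplotlib 3.10.9. As alternatives, DESeq2 1.42.0 was run with its default filters and with none, and edgeR with RLE size factors, without the filter on low counts, with 10 counts required per library, with the replicate number as a block and with each library left out. limma 3.58.1 was run on log2(FPKM + 0.1) and log2(FPKM + 1). The count of intervals within 1.5-fold and the fit without both replicate 3 libraries were added after the data were seen. The ratios of partner genes were not among the results planned beforehand. Pairs of libraries within a group differed by more than sampling noise (chi-square of 5.18 to 8.54 per gene), so none was treated as a copy of another. Whether any were prepared from the same RNA was not tested.

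The members and lists were chosen with earlier results of these data known, mdc1 among them. Fold changes are given for genes that edgeR or DESeq2 called, the 10 smallest p-values of edgeR, genes with 10 counts or more throughout one group but 0 throughout the other, and genes for which 1 library held 90% of the counts, of which there were 0. Levels are given for the 3 highest FPKM of each pathway and for key genes of each pathway. From the list of other damage response genes the 4 smallest p-values and the 3 highest FPKM are named. Other members are named to account for them, and values for rad17, the fold of msh6 and the mention of paxip1, hus1 and rad9a were added after values were seen. tp53bp2b matched a pattern given for double-strand break repair, but was placed outside the pathways because of its known role. The values of 1 member are not reported here, although it is kept in the counts and medians over the members.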

Additional observations from a re-analysis of the deposited data

How the results depend on the processing

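The count of repair genes called was 0 with edgeR and 1 with DESeq2, with or without its filters, where mdc1 had an adjusted p of 2.27e-05 to 2.55e-05. It stayed at 0 with RLE size factors, no filter on low counts and limma on FPKM. Leaving out each library, or both replicate 3 libraries, also gave 0 calls. With 10 counts required per library the count was 0 too, but that filter drops mdc1, rad17 and msh6. It could not have given a call of mdc1. For mdc1 the adjusted p was 0.414 to 0.984 from limma. The other damage response genes gave 0 calls in all 15 alternatives. The median log2 fold change of the repair genes was between -0.0287 and 0.00949 when a library was left out. The lowest value came without aged replicate 3, and the next was -0.00463. Of the alternatives compared, only the fit without aged replicate 3 moved the median by more than the SD of the library medians of the repair genes, 0.0256. Between 28 and 38 genes had an interval within 1.5-fold. The fold change of rad17 turned to 0.666, 0.4225 and 0.4194 without fresh replicate 3, aged replicate 1 and aged replicate 2, in a range of -8.337 to 0.666. The cause was not tested. Of 176 combinations of 12 genes with printed folds and an alternative, 171 kept direction and side of the threshold, 3 turned (all rad17) and 2 gained a call (both mdc1 in DESeq2). Deviations from the group means of same-numbered libraries correlated at -0.00237, 0.0375 and 0.0886, each under 0.1, so the numbers were not taken to pair them. Differently numbered libraries correlated at -0.0676 to 0.032, so the replicate 3 libraries had the highest value of all. With the replicate block 0 repair genes were called and the median was -0.00474. The block changed the unadjusted p from edgeR from 0.0493 to 0.00762 for rad23b and from 0.0115 to 0.00183 for prkdc. For mdc1 it rose from 0.000624 to 0.00152. With the block the adjusted p of these genes was 0.771, 0.689 and 0.661 in turn. The 7 untested repair genes had too few counts at this depth to pass the filter of the test.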

Other observations

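A few damage response genes beyond the name pattern varied between libraries of the same group, and these were picked after their values were seen. uimc1, which targets the BRCA1-A complex to breaks, had 116, 178 and 131 counts in the fresh group and 324, 164 and 142 in the aged group, with aged replicate 1 above all others. mbd4, a glycosylase gene for mismatched thymine, had 18, 12 and 38 counts against 12, 52 and 43. mus81, a nuclease gene for branched DNA, had 65, 36 and 61 counts against 72, 26 and 24. Each of these genes had overlapping groups. The helicase gene wrn was counted in 2 libraries, with 13 counts in fresh replicate 3 and 28 in aged replicate 1. The polymerase gene polm had 14, 18 and 0 counts against 0, 0 and 18. The counts of mbd4 and mus81 were not whole in any library.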
